A study of Homo sapiens with 2 samples.

Results

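The transcript clusters of chromosome 9 were compared between a cetuximab-resistant line and its parental line. A transcript cluster is the gene-level unit of the array, and the members were all clusters whose identifier carries the array's prefix for chromosome 9. There were 2900 of them among 67528 on the array. A platform annotation gave 1 gene symbol to 918, several to 51 and none to 1931. Of the 918, 916 were placed on chromosome 9 by the RefSeq gene list of GRCh38.p14, where they made up 897 genes, and 2 were placed on other chromosomes and not ordered.

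Both lines are labelled as FaDu, an established human line of head and neck squamous cancer cells. The first culture is labelled as cetuximab resistant, and it was set against the parental culture, which is labelled as untreated. Cetuximab is an antibody against the epidermal growth factor receptor. The labels give no dose, no duration of exposure, no clone and no word on drug exposure at harvest, and total RNA of each culture was hybridised to 1 Affymetrix Human Transcriptome Array 2.0. With 1 array per line there is no spread between replicates, so no p-value is given and every difference below is a deposited log2 value of the resistant line from which that of the parental line was subtracted.

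A level between the lines may differ because fewer cells carry a transcript or because each cell carries less of it, and bulk RNA does not tell these apart. All 4 measured markers of squamous epithelium and all 5 of simple epithelium lay above background on both arrays. Of the markers of other cells, 4 of 5 for leukocytes, 4 of 5 for fibroblasts and 1 of 3 for endothelium lay at or below background on both arrays, while the endothelial gene CDH5 stood at 6.98 on the resistant and 6.14 on the parental array. The defining leukocyte marker PTPRC stood at 3.98 on the resistant and 3.92 on the parental array, and the fibroblast marker COL1A2 at 4.47 on both. The exceptions among the leukocyte and fibroblast markers were CD68 and COL1A1. CD68, found in macrophages, stood at 9.71 on the resistant and 11.19 on the parental array. COL1A1, the fibroblast marker, stood at 5.26 on the resistant and 5.22 on the parental array. The endothelial gene PECAM1 stood at 5.17 on the resistant array and at background on the parental array, at 3.74. The squamous keratin gene KRT14 stood at 5.17 on the resistant and 11.39 on the parental array, and KRT5 at 13.75 on the resistant and 17.25 on the parental array. Of the other squamous markers, SFN was 2.06-fold lower on the resistant array and PERP 1.12-fold lower. Among the simple epithelium markers EPCAM was 2.58-fold higher, and the others stayed under 2-fold. The part of these markers in the chromosome 9 differences was not tested.

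Genes of olfactory receptors, which epithelial cells mostly do not express, set the background. The 95th percentile of 366 such genes was 5.02 on the resistant and 5.08 on the parental array. The SD of the differences of these receptor genes was 0.42 log2 units, a spread among dim clusters and no measure of replicate error. A gene is called bright if the higher of its values exceeded 6.0, which is the median of this maximum for the 22349 named genes. In counts, higher and lower mean a bright gene whose resistant value lies 2-fold (1 log2 unit) or more above or below the parental one. Because the filter takes the higher value, a gene that is bright in 1 line alone passes it.

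Chromosome 9 carries several regions that are known in head and neck cancer. The tip of the short arm holds the neighbouring genes of the immune checkpoint ligands PD-L1 and PD-L2 and of the kinase JAK2, which passes signals from cytokine receptors to STAT factors. Further down the short arm lie a cluster of type I interferon genes and CDKN2A, whose products restrain the cell cycle and stabilise p53. The far end of the long arm carries NOTCH1, a receptor that promotes differentiation in squamous epithelium.

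The short-arm stretch described first runs from SLC1A1 to PSIP1. Its ends were chosen from these same differences, so its values are a description and carry no test. Promoters of 4 of its genes are shown to set side by side the sequences of members with differences of opposite sign. SLC1A1 was higher on the resistant array by more than 2-fold, CD274 had a positive difference under 2-fold, and RANBP6 and SNAPC3 were among the genes with the most negative differences. PDCD1LG2, the other gene of the stretch that was higher, is named only, and CD274 is its neighbour. Each sequence is from RefSeq on GRCh38.p14 and covers 250 bases before and 50 bases after the start of transcription, 5′ to 3′. Capitals mark matches, on either strand, to the motifs listed after the sequences.
SLC1A1, chr9:4490218-4490517, + strand: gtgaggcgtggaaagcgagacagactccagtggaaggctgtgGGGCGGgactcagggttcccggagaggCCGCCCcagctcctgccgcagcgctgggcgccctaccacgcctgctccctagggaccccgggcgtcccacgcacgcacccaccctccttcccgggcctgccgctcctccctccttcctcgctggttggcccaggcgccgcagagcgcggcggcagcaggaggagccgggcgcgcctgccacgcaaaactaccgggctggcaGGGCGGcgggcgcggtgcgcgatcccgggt
CD274, chr9:5450292-5450591, + strand: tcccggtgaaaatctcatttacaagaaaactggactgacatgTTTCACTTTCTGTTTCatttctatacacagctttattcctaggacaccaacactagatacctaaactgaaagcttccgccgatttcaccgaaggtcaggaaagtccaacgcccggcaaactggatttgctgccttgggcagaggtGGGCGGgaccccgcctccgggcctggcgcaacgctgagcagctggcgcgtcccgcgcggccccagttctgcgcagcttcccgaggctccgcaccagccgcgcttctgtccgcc
RANBP6, chr9:6015575-6015874, - strand: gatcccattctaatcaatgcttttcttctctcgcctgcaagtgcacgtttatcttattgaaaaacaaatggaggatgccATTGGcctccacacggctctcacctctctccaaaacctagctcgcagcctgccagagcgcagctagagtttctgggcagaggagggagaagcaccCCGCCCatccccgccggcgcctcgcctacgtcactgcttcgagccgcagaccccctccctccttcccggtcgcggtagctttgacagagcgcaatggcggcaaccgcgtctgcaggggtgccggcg
SNAPC3, chr9:15422626-15422925, + strand: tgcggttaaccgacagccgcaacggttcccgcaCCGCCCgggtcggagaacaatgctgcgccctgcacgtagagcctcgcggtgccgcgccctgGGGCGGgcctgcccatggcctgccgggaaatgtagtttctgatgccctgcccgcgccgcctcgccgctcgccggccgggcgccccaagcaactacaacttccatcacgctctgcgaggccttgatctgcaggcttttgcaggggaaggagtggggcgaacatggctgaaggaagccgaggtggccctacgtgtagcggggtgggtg

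The motifs searched were the AP-1 site TGANTCA, the interferon-stimulated response element (GAAA, any pair of bases, GAAA), the TATA box TATAAA, the CCAAT box CCAAT and the GC box GGGCGG. The CD274 promoter held 2 overlapping matches to the interferon-stimulated response element, which begin 208 and 202 bases before the start, and a GC box. The SLC1A1 promoter held 3 GC boxes and the SNAPC3 promoter 2, while the RANBP6 promoter held a GC box and a CCAAT box. The promoter table covered 34 of the 41 placed genes of the stretch with 56 promoters. The GC box was found in 53.6% of these 56, against 45.0% of all 35116 promoters of this length. The CCAAT box was found in 35.7% against 34.6%, the TATA box in 7.14% against 11.5%, the AP-1 site in 5.36% against 7.71% and the interferon element in 3.57% against 3.57%. A match describes letters and is not a measured site.

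Most expressed genes of the stretch were lower on the resistant array, by about 2 log2 units. The stretch held 41 placed genes, of which 28 lay above background on at least 1 array and 26 were bright. Of these 26, 19 were lower and 2 higher on the resistant array. Over all named genes, 14.1% of 11158 bright genes were lower and 16.0% higher. Without the brightness filter, 7.41% of all 22349 lay 2-fold or more below and 8.34% above. The stretch was chosen for its differences, so nothing is read from that contrast. The 19 lower genes ranged from a difference of -1.30 to one of -3.80 with a median of -2.31, and 16 of them reached 4-fold. Over all named genes, 3.86% of the bright ones and 1.93% of all reached a 4-fold decrease, and 5.43% and 2.72% a 4-fold increase. The median over all 41 genes, dim ones included, was -0.69, against -0.04 over the other 856 placed genes of chromosome 9 and -0.01 over all named genes.

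**Figure D1:**
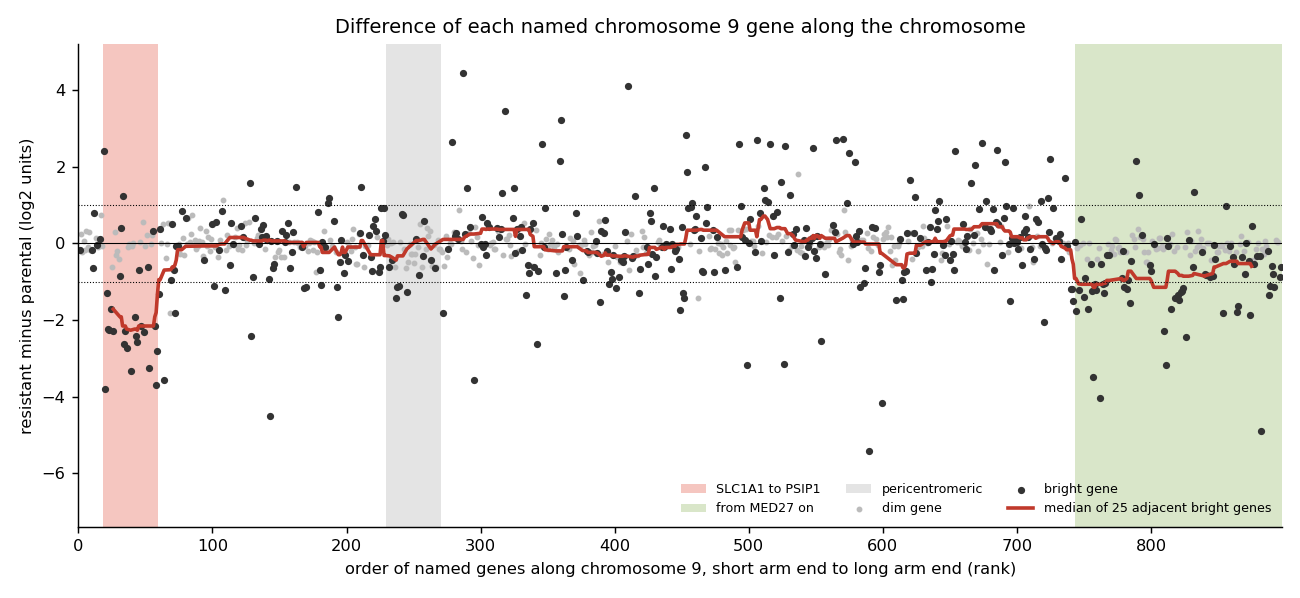
Resistant minus parental difference (log2 units, vertical axis) of the 897 placed genes against their rank along chromosome 9 (horizontal axis), with bright genes in black, dim genes in grey and the median of 25 adjacent bright genes as a red line. The line lies near -2.27 in the SLC1A1 to PSIP1 stretch (red band) and again below 0 from MED27 to the end of the long arm (green band), and runs between -0.64 and 0.71 over the windows that lie between the bands.

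Genes of transcription and chromatin in the stretch had large negative differences, with NFIB as an exception. SNAPC3, a subunit of the complex that activates small nuclear RNA genes, stood at 8.45 on the resistant and 12.14 on the parental array, a difference of -3.69 (12.9-fold lower). PSIP1, the gene of the chromatin reader LEDGF, stood at 10.30 on the resistant and 13.10 on the parental array (6.96-fold lower). RANBP6, an importin family gene, stood at 8.19 on the resistant and 11.52 on the parental array, 10.1-fold lower. These genes remained far above background in both lines.

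KDM4C, which removes methyl groups from histone H3, stood at 6.27 on the resistant and 8.85 on the parental array. BRD10, a bromodomain gene, stood at 8.53 on the resistant and 11.26 on the parental array, and its second, dimmer cluster at 5.30 on the resistant and 7.38 on the parental array, so both clusters were lower. UHRF2, a ubiquitin ligase that binds modified cytosine, stood at 9.37 on the resistant and 11.29 on the parental array. NFIB, a nuclear factor I transcription factor, stayed under 2-fold, at 11.01 on the resistant and 11.63 on the parental array. The list of 9 genes set for transcription and chromatin on distal 9p includes SMARCA2, RFX3 and GLIS3, which lie outside the stretch. It also counts the importin family gene RANBP6 and leaves out BRD10, so it does not match the class exactly. Of the 9, 8 were bright, 5 of these were lower and 0 higher, with a median of -1.92. Over all bright genes, 14.1% were lower and 16.0% higher. The 5 lower genes all lie in the stretch, which was chosen for its lower values, so their direction is no separate result.

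Genes of cytokine signalling and immune ligands were divided. JAK2 stood at 6.70 on the resistant and 8.99 on the parental array, a difference of -2.29 (4.89-fold lower). CD274, the gene of PD-L1, stood at 8.16 on the resistant and 7.77 on the parental array, a difference of 0.39 log2 units, which is under 2-fold. PDCD1LG2, the gene of PD-L2, stood at 6.59 on the resistant and 5.37 on the parental array, 2.33-fold higher. Both ligand genes lie side by side between PLGRKT, at 5.28 on the resistant and 6.13 on the parental array, and the trafficking gene RIC1, at 8.0 on the resistant and 10.62 on the parental array. Here adjacent genes of the stretch went opposite ways.

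The relaxin family hormone genes INSL4, RLN1 and RLN2 and the alarmin gene IL33 lay at or below background on both arrays, and INSL6 stood at 5.14 on the resistant and 4.85 on the parental array. Of the 8 genes in the list of immune ligands and cytokine signalling, 3 were bright, of which 1 was higher and 1 lower, with a median of -0.15 over all 8. All 8 lie in the stretch, so these counts are no separate result.

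Other genes of the pathway in which JAK2 acts lie on other chromosomes. Of 17 measured JAK, STAT, SOCS and interferon receptor genes and IRF1, JAK2 included, 13 were bright, 5 of them were lower and 0 higher, against 14.1% lower and 16.0% higher over all bright genes. The median of the 17 was -0.25. The kinase genes JAK1 and TYK2 stood at 11.66 and 7.64 on the resistant array, against 11.82 and 7.74 on the parental array. The interferon receptor gene IFNAR1 stood at 11 on the resistant and 13.11 on the parental array, and the transcription factor gene IRF1 at 5.47 on the resistant and 7.12 on the parental array. JAK2 had the most negative difference of the 17.

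The metabolic and organelle genes listed all lie in the stretch, which was chosen for its lower values, so their direction is no separate result. Of these 11 genes, all bright, 9 were lower and 1 higher on the resistant array, against 73.1% lower and 7.69% higher over the bright genes of the stretch and 14.1% and 16.0% over all bright genes. Their median was -2.24. ZDHHC21, a palmitoyltransferase gene, stood at 8.64 on the resistant and 11.89 on the parental array, 9.51-fold lower. ERMP1, an endoplasmic reticulum peptidase gene, stood at 10.57 on the resistant and 12.85 on the parental array. AK3, the adenylate kinase of the mitochondrial matrix, stood at 8.15 on the resistant and 10.42 on the parental array.

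CDC37L1, a gene related to the HSP90 partner CDC37, stood at 7.22 on the resistant and 9.46 on the parental array. RCL1, which takes part in ribosomal RNA processing, stood at 8.19 on the resistant and 9.91 on the parental array, and the lipid phosphatase gene PLPP6 at 7.89 on the resistant and 9.19 on the parental array. TTC39B stood at 5.68 on the resistant and 7.84 on the parental array. GLDC, the glycine decarboxylase of the mitochondrial glycine cleavage system, lay at background on the resistant array at 4.75, against 7.16 on the parental array, and was at least 4.40-fold lower. PLGRKT, the plasminogen receptor gene named above, was 1.80-fold lower and missed the 2-fold mark. DMAC1, an assembly factor of respiratory complex I that is not in the list, stood at 5.35 on the resistant and 6.04 on the parental array.

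SLC1A1, a transporter of glutamate and cysteine at the telomeric end of the stretch, stood at 7.64 on the resistant and 5.23 on the parental array, 5.31-fold higher. Its neighbour SPATA6L had the most negative difference of the stretch, at 5.11 on the resistant and 8.91 on the parental array, 13.9-fold lower. The extremes of the stretch in both directions were thus adjacent genes. The resistant value of SPATA6L and the parental value of SLC1A1 lay barely above background, so both folds are imprecise.

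Of the adhesion and junction genes, MPDZ, a scaffold gene of tight junctions, stood at 8.53 on the resistant and 10.84 on the parental array, 4.96-fold lower. TYRP1, known as a melanosome enzyme, lay at background on the resistant array at 4.33, against 6.49 on the parental array, and was at least 2.77-fold lower. LURAP1L stood at 5.48 on the resistant array and at background on the parental array, at 4.92. PTPRD, a receptor phosphatase gene, and the genes FREM1 and CER1 lay at or below background on both arrays. Over the 6 listed genes the median was 0.005. The 2 bright members, MPDZ and TYRP1, were lower, and TYRP1 is listed here although it is known as a melanosome enzyme. These genes also lie in the stretch, so that direction is no separate result.

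The remaining genes of the stretch were MIR101-2, MIR4665, MLANA, TPD52L3, LINC01235 and LINC00583, at or below background on both arrays, and LOC389705, at 6.41 on the resistant and 6.10 on the parental array. In all, 13 of the 41 genes lay at or below background on both arrays, and their differences ran from -0.62 to 0.21.

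**Figure D2:**
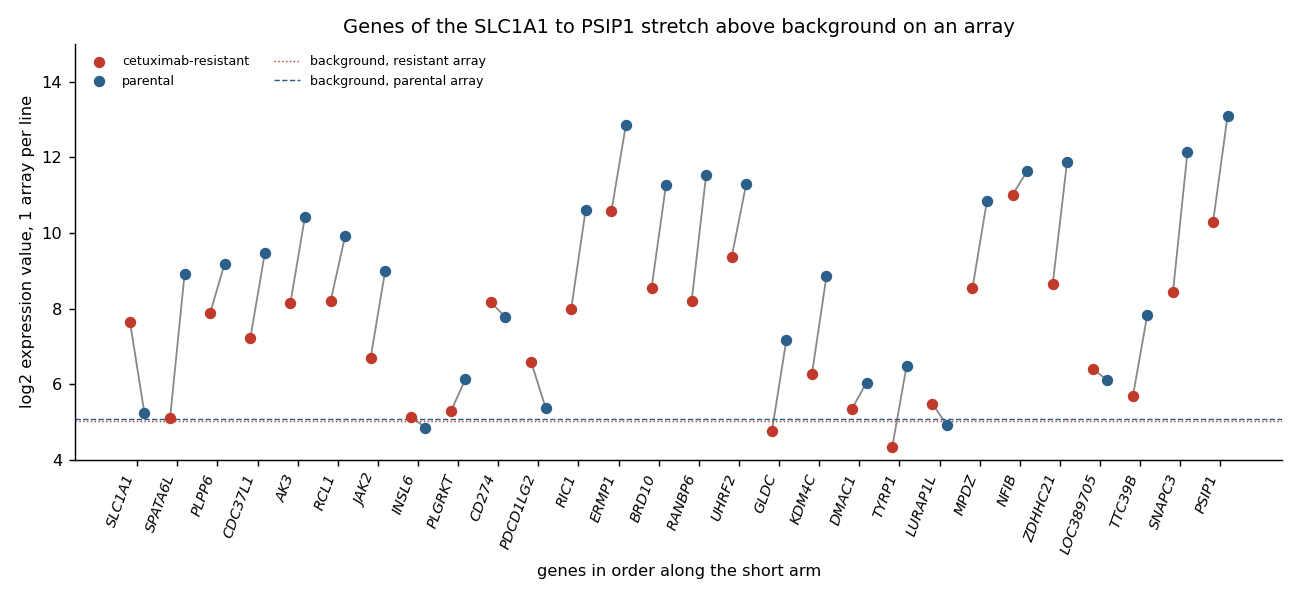
Log2 expression value (vertical axis) of the 28 genes of the stretch that lay above background on at least 1 array, in order along the short arm (horizontal axis), with the resistant array in red left of the parental array in blue, and 1 array per line. Most lines rise to the parental point, while SLC1A1 and PDCD1LG2 fall towards it by more than 1 log2 unit.

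At the telomeric edge the differences were small. The 18 placed genes between the end of the arm and SLC1A1 had a median of -0.06, and 0 of the 6 bright ones were 2-fold different in either direction. SMARCA2, a chromatin remodelling ATPase, stood at 7.87 on the resistant and 8.52 on the parental array, and the lipoprotein receptor gene VLDLR at 6.97 on the resistant and 6.17 on the parental array. GLIS3-AS1, the last gene before the stretch, was at background on both arrays. RFX3 stood at 6.06 on the resistant and 5.94 on the parental array. GLIS3, a dim gene, stood at 5.31 on the resistant array and at background on the parental array, at 4.57. SLC1A1, which opens the stretch, was higher, so SPATA6L next to it was the first bright gene along the arm that was lower. Since genes inside the stretch also went both ways, a single gene does not fix the edge.

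At the centromeric edge the lower values went on past PSIP1. CCDC171, the first gene after it, stood at 5.21 on the resistant and 6.53 on the parental array, 2.497-fold lower. CNTLN, a centrosomal gene, stood at 7.17 on the resistant and 10.75 on the parental array, 11.96-fold lower. RRAGA, a GTPase that signals amino acid supply, stood at 6.57 on the resistant and 7.52 on the parental array. HAUS6, a spindle gene that follows, stood at 10.65 on the resistant and 10.15 on the parental array, and the ribosomal gene RPS6 at 8.81 on the resistant and 8.89 on the parental array. PLIN2, between HAUS6 and RPS6, stood at 5.04 on the resistant and 6.85 on the parental array, so the end is not sharp. RRAGA, HAUS6, RPS6, SMARCA2, VLDLR, RFX3 and GLIS3 were picked after their values were seen, to show where the lower values begin and end.

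The rest of the short arm, from CCDC171 to ALDH1B1, held 81 bright genes. Of these, 5 (6.17%) were higher and 12 (14.8%) lower on the resistant array, against 16.0% and 14.1% over all bright named genes. Its 170 placed genes had a median of -0.03 (-0.025 unrounded). Of the 10 genes around CDKN2A, 7 were bright and 0 of these were 2-fold different. CDKN2A stood at 7.79 on the resistant and 7.96 on the parental array, and the neighbouring inhibitor gene CDKN2B at 7.61 on the resistant and 6.78 on the parental array. MTAP, which salvages methionine, stood at 10.39 on the resistant and 9.84 on the parental array, and its dimmer cluster went the other way, at 5.71 on the resistant and 6.52 on the parental array.

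The type I interferon cluster, 17 genes with a median of 0.03, was at or below background on both arrays except for IFNE, the interferon of epithelial surfaces, which stood at 6.90 on the resistant and 8.01 on the parental array. The 12 measured genes of the protein and DNA quality control list of 9p13 had a median of 0.17, and 0 were 2-fold different. VCP, an ATPase that extracts proteins for degradation, stood at 13.28 on the resistant and 12.47 on the parental array, and TOPORS, a ubiquitin and SUMO ligase gene, at 6.79 on the resistant and 7.68 on the parental array. Single genes of this arm departed far from their neighbours. AQP3, a water and glycerol channel of keratinocytes, stood at 5.57 on the resistant and 10.07 on the parental array, 22.6-fold lower. RIGI, a sensor of viral RNA, stood at 6.88 on the resistant and 9.31 on the parental array, and PLIN2, a lipid droplet coat gene, at 5.04 on the resistant and 6.85 on the parental array.

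The 41 pericentromeric genes include many near-identical copies whose clusters may share signal. Of 14 bright ones, 0 were higher and 4 (28.6%) lower, against 16.0% and 14.1% over all bright named genes. The median was -0.54 over the bright genes and -0.15 over all 41. With 14 bright genes, these counts are a description only.

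The long arm before MED27 held 268 bright genes, of which 45 (16.8%) were higher and 28 (10.4%) lower on the resistant array. Over all bright named genes the shares were 16.0% and 14.1%. MED27 was set as the boundary after the values were seen, so the shares of this segment depend on that choice. The 473 placed genes of the segment had a median of 0.00. Large differences of both signs occurred along this segment, and some positive ones lay close together. The highest median of a window of adjacent bright genes on chromosome 9, 0.71 from NIPSNAP3A to HSDL2, fell here. ABCA1, CTNNAL1, EPB41L4B, PTPN3, TXN, SVEP1 and UGCG lie in that window and were higher, while ZNF462 and SHOC1 in the same window were lower. All 12 of the largest positive differences on chromosome 9 outside the stretch lay in this segment.

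CEMIP2, a cell surface hyaluronidase, stood at 10.36 on the resistant and 5.91 on the parental array, 21.9-fold higher. FBP1, an enzyme of gluconeogenesis, stood at 9.11 on the resistant array and at background on the parental array, at least 16.3-fold higher. TLE1, a transcriptional corepressor, stood at 9.43 on the resistant and 5.98 on the parental array, 10.9-fold higher. The adaptor gene SHC3 (at least 7.50-fold), the GABA receptor gene GABBR2 (at least 5.16-fold), the metalloprotease gene PAPPA (at least 5.02-fold) and the TNF family ligand gene TNFSF15 (at least 6.22-fold) were all at background on the parental array. MAMDC2 and the cholesterol exporter gene ABCA1 were likewise at background on the parental array, and differed from background by 3.99-fold and 5.23-fold, which are lower bounds. CTNNAL1, a relative of alpha-catenin, was 6.45-fold higher, the matrix gene SVEP1 6.06-fold and LCN2, an iron-binding lipocalin, 6.15-fold.

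STOM, the gene of the membrane protein stomatin, had the most negative difference of all bright chromosome 9 genes, at 8.56 on the resistant and 13.97 on the parental array, 42.5-fold lower. PTGS1, a prostaglandin synthase, lay at background on the resistant array at 4.57, against 8.75 on the parental array, at least 13.2-fold lower. ANXA1, a phospholipid-binding gene of squamous epithelium, stood at 10.52 on the resistant and 14.09 on the parental array. The zinc finger genes ZNF462 and ZNF618 were 9.0-fold and 5.86-fold lower, and the meiotic gene SHOC1 at least 4.49-fold lower. The other large negative differences, of AQP3, CNTLN, NRARP, ABO, CEL and UBAC1, lay on the short arm or from MED27 on.

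**Figure D3:**
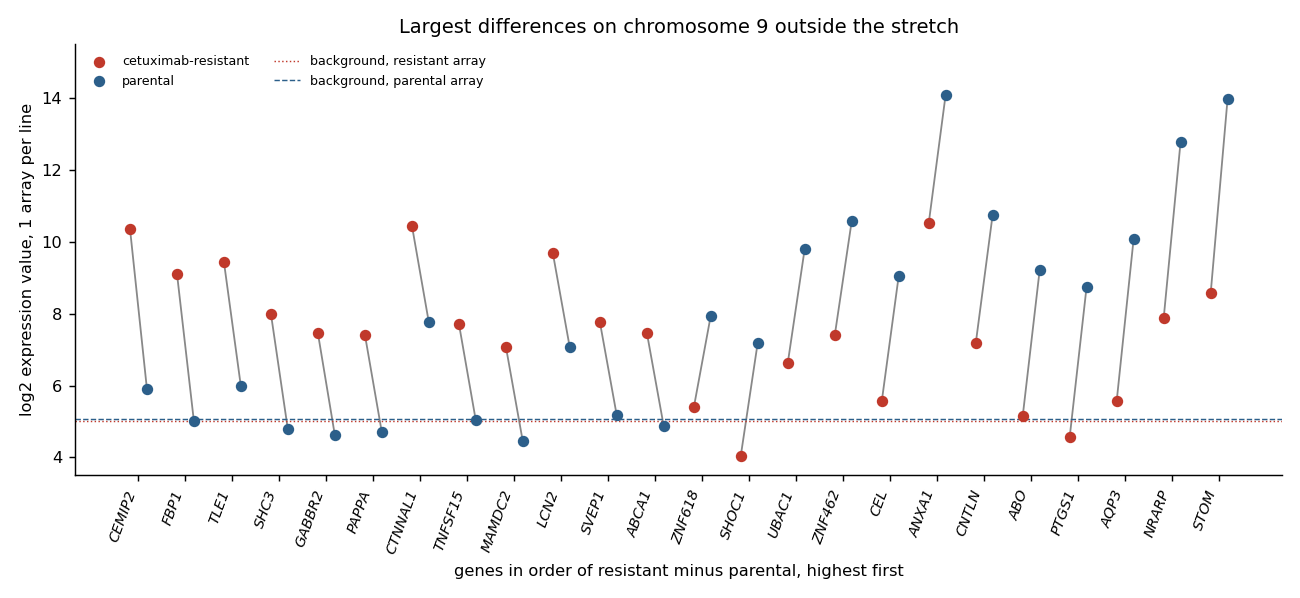
Log2 expression value (vertical axis) of the 12 genes with the largest positive and the 12 with the largest negative difference outside the stretch, ordered by resistant minus parental difference (horizontal axis), with the resistant array in red left of the parental array in blue. The pairs run from CEMIP2, 4.45 log2 units higher, to STOM, 5.41 log2 units lower on the resistant array.

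Over all bright genes, 16.0% were higher and 14.1% lower, and these shares stand beside the counts of every list that follows. The lists hold few bright genes each, so their counts are a description and no result about a group. Among the lists fixed for the chromosome, metabolic enzymes had 22 measured genes, of which 18 were bright, 6 higher and 2 lower, with a median of 0.21. UGCG, which makes glucosylceramide, stood at 12.18 on the resistant and 9.65 on the parental array. Of 14 kinase and receptor genes, 11 were bright, 3 higher and 1 lower, with a median of 0.21. DAPK1, a kinase gene of cell death and autophagy, stood at 7.88 on the resistant and 5.29 on the parental array. PTCH1, the hedgehog receptor, stood at 8.21 on the resistant and 6.98 on the parental array, and the TGF-beta receptor gene TGFBR1 at 9.19 on the resistant and 8.24 on the parental array, just under 2-fold.

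Of 10 epithelial and squamous genes, 8 were bright, 3 higher and 2 lower, with a median of 0.56. Of 17 matrix genes 4 were bright and 2 higher, PAPPA and SVEP1, with a median of -0.06. TNC, the gene of tenascin C, was at background in both lines, and the clusters of COL27A1 differed in size, at 5.48 and 3.92 on the resistant array against 6.27 and 6.30 on the parental array. Of 8 tumour suppressor and repair genes, 7 were bright, 2 higher and 1 lower, with a median of 0.10, and the phosphatase gene PTPN3 stood at 10.08 on the resistant and 8.96 on the parental array.

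Of 14 transcription factor genes, all of the long arm except PAX5 near the centromeric end of the short arm, 6 were bright, 2 higher and 3 lower, with a median of -0.17. Of 13 ribosome, chaperone and secretory genes, 12 were bright, 0 higher and 3 lower, with a median of -0.03, and TOR1A, an endoplasmic reticulum ATPase gene, stood at 10.01 on the resistant and 12.06 on the parental array. Of 11 transporter and lipid droplet genes, 8 were bright, 1 higher and 1 lower, with a median of 0.41. Of 12 innate immune genes, 3 were bright, 2 higher and 1 lower, with a median of 0.08, and TLR4, the receptor of bacterial lipopolysaccharide, stood at 6.41 on the resistant array and at background on the parental array.

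A second run of lower values covered the end of the long arm. It was delimited after the values were seen, as every gene from MED27 to the end, and carries no test. Of its 154 placed genes 78 were bright, and of these 33 (42.3%) were lower and 3 higher on the resistant array. The 3 higher ones were MIR3689C, MIR3689B and DIPK1B. The median of the 78 was -0.85, and 68 of them lay below 0. The median over all 154 was -0.23 (-0.225 unrounded), and it was -0.1432 with a loess correction and -0.0837 with values raised to background.

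The sizes in this run were smaller than in the short-arm stretch. Among genes whose mean over both arrays was at least 7, a filter that treats both lines alike, 16 of 18 stretch genes were lower, with a median of -2.30 and an interquartile range from -2.78 to -2.0. From MED27 on, 31 of 58 were, with a median of -1.09 and an interquartile range from -1.47 to -0.53. In the rest of chromosome 9 before MED27, 31 of 270 were lower and 34 higher, with a median of 0.08, and over all named genes past this filter 14.0% were lower and 16.0% higher.

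**Figure D4:**
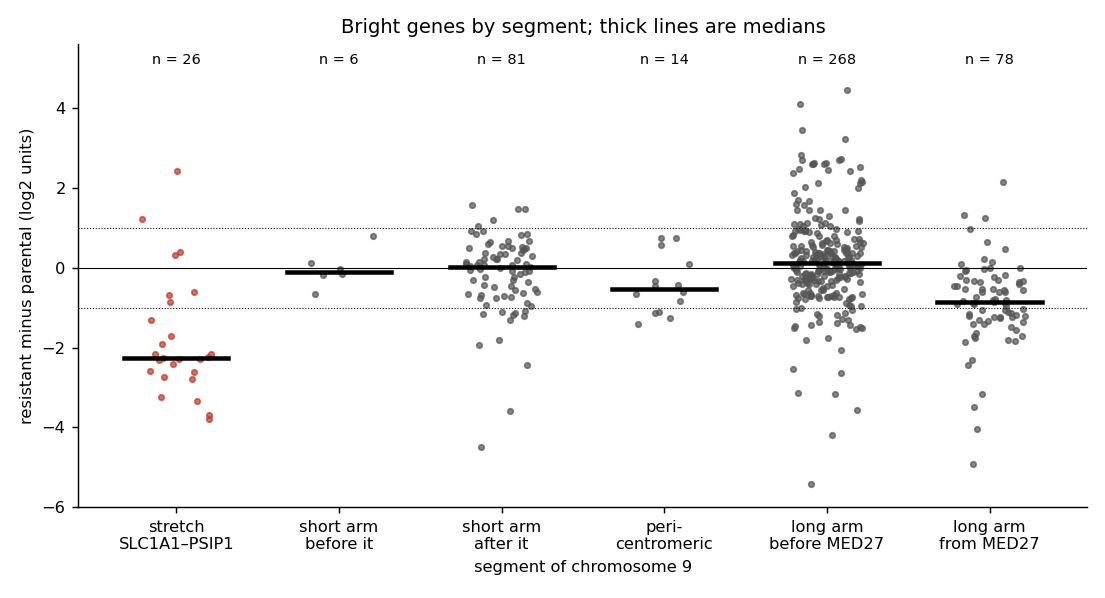
Resistant minus parental difference (log2 units, vertical axis) of every bright placed gene by segment of chromosome 9 (horizontal axis), with thick lines at the medians and dotted lines at 2-fold. The medians are -2.26 in the stretch and -0.85 from MED27 on, against 0.02 in the short arm after the stretch and 0.13 in the long arm before MED27.

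NOTCH1 stood at 7.12 on the resistant and 9.56 on the parental array, 5.43-fold lower. NRARP, a feedback inhibitor of NOTCH signalling in the same run, stood at 7.87 on the resistant and 12.78 on the parental array, 30.1-fold lower. ABO, a glycosyltransferase gene, stood at 5.15 on the resistant and 9.20 on the parental array, 16.6-fold lower, and the lipase gene CEL at 5.56 on the resistant and 9.04 on the parental array, 11.2-fold lower. UBAC1, a partner of a ubiquitin ligase, stood at 6.63 on the resistant and 9.80 on the parental array, 9.0-fold lower. These large values were exceptions within the run, where the interquartile range of the bright genes was -1.30 to -0.33.

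The following genes of the run were picked after their values were seen, and their differences stand for no group. MED27, a Mediator subunit, stood at 9.54 on the resistant and 11.31 on the parental array. TSC1, which restrains mTOR signalling, stood at 9.93 on the resistant and 11.65 on the parental array. WDR5, a subunit of histone methyltransferases, stood at 11.85 on the resistant and 13.05 on the parental array, and GTF3C5, a factor of RNA polymerase III, at 9.58 on the resistant and 10.82 on the parental array. SNAPC4, a partner of SNAPC3 in the same complex, stood at 7.93 on the resistant and 9.27 on the parental array.

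SEC16A, which organises export from the endoplasmic reticulum, stood at 10.16 on the resistant and 11.34 on the parental array, and its second cluster was lower too, at 6.82 on the resistant and 8.36 on the parental array. The retinoid receptor gene RXRA stood at 6.96 on the resistant and 8.51 on the parental array. ABCA2, a lipid transporter, went the other way, at 7.61 on the resistant and 6.64 on the parental array, and the tubulin gene TUBB4B stood at 15.53 on the resistant and 16.06 on the parental array. Just before MED27 the genes PRRC2B, POMT1 and UCK1 were also lower, with differences of -1.19, -1.20 and -1.5, so the start of the run is not sharp.

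Values close to the 2-fold mark show how the counts turn on it. GOLGA1 and CNTRL lay just inside, with differences of -1.0 and -1.03, and SPTLC1 and ABCA2 just outside, with -0.97 and 0.97.

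Clusters without a gene symbol could be placed in part. Within the first 858 and the next 920 identifier numbers, the numbers of named clusters ran along the chromosome, with a Spearman correlation with position of 0.9999 over 397 and 0.9999 over 470 clusters. An unnamed cluster was therefore set between the named clusters on either side of its number, which is an inference and not an annotation. Of 46 unnamed clusters set within the stretch 13 were bright, and 5 of these were lower and 1 higher on the resistant array, against 18.9% and 10.5% of bright unnamed clusters of the whole array. The median difference was -0.36 over the 13 and -0.13 over all 46, and 4 of the 13 stood above 13 on both arrays, with differences of 0.46, 1.22, -0.30 and -1.38.

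An unnamed cluster set between UHRF2 and TYRP1 stood at 5.75 on the resistant and 8.22 on the parental array, and that between MIR101-2 and JAK2 at 5.13 on the resistant and 7.04 on the parental array. From MED27 on, 14 of 55 unnamed clusters were bright, 3 of them lower and 0 higher. The 1106 unnamed clusters with later numbers could not be placed, and of their 243 bright ones 44 were lower and 27 higher. Over all 1931 unnamed clusters of chromosome 9 the median was -0.08, and 18.1% of the 487 bright ones were lower and 8.01% higher. The extremes were TC09001989.hg.1, at 9.23 on the resistant and 3.61 on the parental array, and TC09002827.hg.1, at 4.52 on the resistant and 9.11 on the parental array. Of the 51 clusters with several symbols 27 were bright, 7 of them (25.93%) lower and 2 (7.41%) higher. Over the 838 bright clusters with several symbols on the whole array, 15.63% were lower and 10.02% higher. With 27 bright clusters, these counts are a description only.

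Runs of lower or higher values were not confined to chromosome 9. Over bright genes the lowest median of 25 adjacent genes on chromosome 9 was -2.27, from SPATA6L to PSIP1, and of the 22 other chromosomes examined chromosome 14 had a lower one, at -3.05. Windows below -1 occurred on 5 other chromosomes, numbers 8, 11, 14, 15 and 17. The highest window on chromosome 9 was 0.71, from NIPSNAP3A to HSDL2, while chromosome 18 reached 2.17 and chromosome X 2.08. Chromosome 9 ranked 4 of 23 in the share of bright genes lower, at 20.3%, and 19 of 23 in the share higher, at 11.6%. With dim genes included, its lowest window was -1.30 and ranked 3 of 23, behind chromosome 14 at -2.32 and chromosome 17 at -1.42.

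The differences of adjacent bright genes on chromosome 9 had a Pearson correlation of 0.28 over 472 pairs, 0.22 over 446 pairs without the stretch and 0.16 over 368 pairs without the genes from MED27 as well. The other chromosomes ranged from 0.11 to 0.42. These are correlations across genes, which share both arrays and are not independent replicates.

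**Figure D5:**
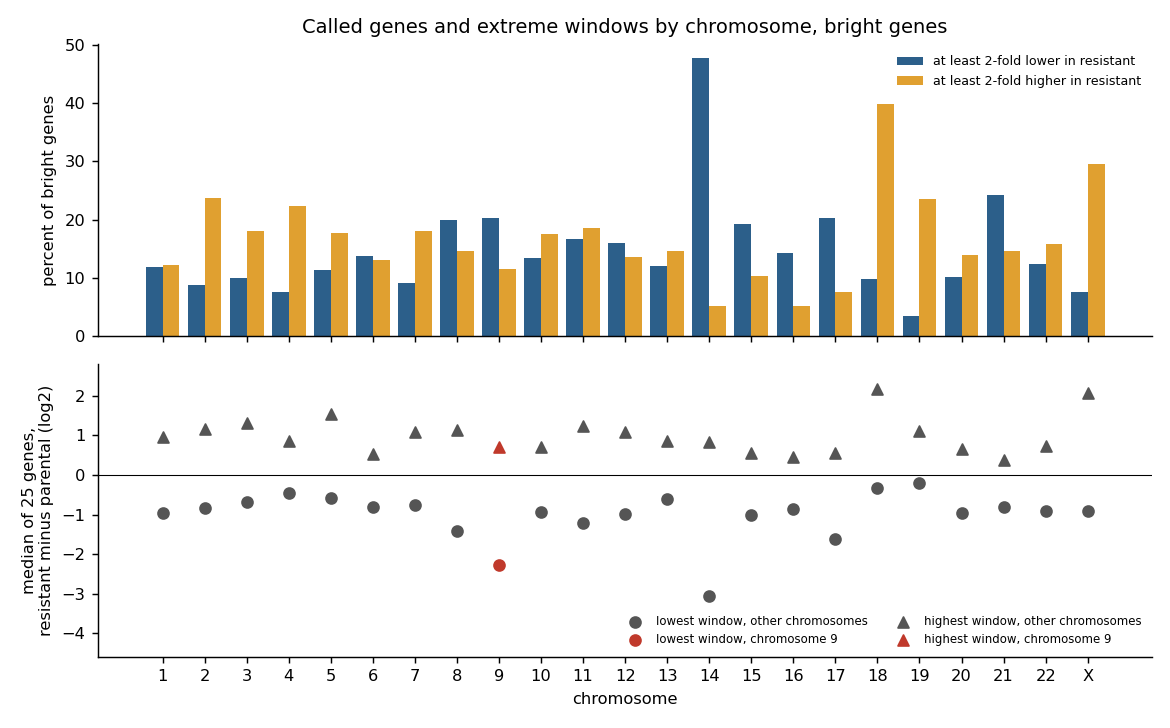
Top, percent of bright genes lower (blue) or higher (orange) on the resistant array, by chromosome. Bottom, lowest (circles) and highest (triangles) median difference of 25 adjacent bright genes in log2 units, with chromosome 9 in red, whose lowest window, -2.27, is second to that of chromosome 14, -3.05.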

How the data were processed

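Total RNA of 2 cultures was hybridised to 1 array each. The authors deposited log2 expression values with 1 value per transcript cluster and array. Affymetrix Expression Console appears in the submitters' processing notes, with version, algorithm and build not given in the sources used here. That values are on a log2 scale was inferred from their range. The sorted values of the deposited arrays differed by a median of 0.06, so both had been brought to nearly one distribution, which hides any difference in total RNA. No probe intensities or detection calls were used, so scan batch and array could not be told apart from the lines, and the number of arrays limits the precision.

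Clusters with 1 symbol were named. Of the 918 on chromosome 9, 834 were matched to RefSeq by gene identifier, 69 by symbol and 15 by synonym. RefSeq start positions served for gene order alone. A gene with several clusters, 16 on chromosome 9, was represented by the brightest on average. Named genes were all stretch genes above background, the 12 largest differences in each direction among bright genes outside it (small noncoding and unnamed-locus symbols left out), up to 3 members per list, the edge genes and 8 genes set by name, and genes picked otherwise are marked. Members, lists and tests were chosen with earlier results of these data known. A fold with 1 array at background is computed from the background level and written "at least". Alternatives were other scalings, filters, fold sizes, cluster rules, stretch ends and window lengths. Counting and window steps were tested on simulated data (Python 3.11.15, numpy 2.4.6, pandas 2.3.3, statsmodels 0.14.6).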

Additional observations from a re-analysis of the deposited data

How the results depend on the processing

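No paired analysis was possible because each line has 1 array. The 19 lower genes of the stretch became 14 to 22 under the alternatives, and 16 at 4-fold, where 3.86% of all bright genes were lower. Centring, loess and quantile scaling left the count at 19 and moved the stretch median to between -0.62 and -0.61. They moved the median outside the stretch to 0.03, 0.0139 and 0.0025, so that value has no settled sign. The 2 higher genes of the stretch became 0 above the 75th percentile, 0 with a mean of both arrays of at least 7 (chosen after the data were seen), 1 at 4-fold and 1 without the end genes, since SLC1A1 is an end. Outside the stretch, 53 higher and 77 lower genes became 23 and 40 above the 75th percentile, 91 and 133 at 1.5-fold (26.1% and 24.8% of all bright genes), 25 and 17 at 4-fold (5.43% and 3.86%), and 34 higher with the mean filter. Centring gave 59 higher and 72 lower, quantile scaling 63 and 70, and loess 66 and 65, so the excess of lower over higher genes there is not kept under loess. The 33 lower genes from MED27 on became 6 at 4-fold, and the median of all 154 moved to -0.14 with loess and to -0.0837 with values raised to background. The lowest window median over all genes, -1.30, became -2.28 over 11 genes, -0.62 over 51 and -2.27 over bright genes. Filters and fold sizes do not act on the medians. Of 82 chromosome 9 genes named by the rule, 0 changed sign among those at least 2-fold different. Values raised to background moved 9 of them by more than 0.42, and the mean of clusters moved 2, MTAP to -0.13 and COL27A1 to -1.59. The cause of these shifts was not tested. Values near background carry the least information.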
